A study of Mus musculus with 4 samples.

Results

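The coelomic epithelium of the gonad is the sheet of cells that covers the genital ridge. Its cells were taken here as those that the deposited annotation calls Epithelial, which is a separate name from the Epithelial mesonephros cells that line the neighbouring mesonephros. They numbered 5157 of 52745 annotated cells, and they came from single-cell RNA sequencing (10x Genomics 3′ chemistry, which counts unique molecular identifiers, UMIs) of mouse gonads dissected with the mesonephros. Of these cells 2215 came from XY control gonads at E11.5 and 230 from XX control gonads at E11.5. The samples XY KO E11.5, here the E11.5 KO, and XY KO E11.75, here the E11.75 KO, held 1804 and 908. In KO cells both copies of the miR-17~92 cluster of microRNA genes had been deleted with CRISPR/Cas9 in G4 XY mouse embryonic stem cells, and both XY genotypes were whole embryos grown from these stem cells by tetraploid complementation. The XY control embryos came from the same line without the edit, whereas the XX control embryos came from natural crosses of C57BL/6J males with 129 females. The labels give C57BL/6 x 129S4/SvJae as the strain of every sample.

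Each group was 1 sample in which gonads of several embryos were pooled, so the differences below have no replicate check. The intervals printed are exact 95% intervals of counting error only. No control of the later stage was sequenced, so that stage and deletion cannot be told apart in the E11.75 KO. The edited stem cell clone and the deletion cannot be told apart in either KO sample, since the number of clones is not given in the sources used here. The XX and XY controls differed in breeding, depth and cell filtering as well as in sex chromosomes. Epithelial cells of the XX control had a median of 18694.5 UMIs, against 4429.5 to 5192.5 in the other samples. The files hold 2 replicates of each sample except the E11.75 KO, which has 1. The study calls them technical replicates, and they are called runs here.

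The coelomic epithelium is the source of much of the somatic gonad. Its cells express transcription factors of the bipotential gonad such as Wt1, Lhx9, Emx2 and Gata4, they divide, and part of them leave the surface and become progenitors of supporting and interstitial cells. In the XY gonad this layer responds to fibroblast growth factor (FGF) signals, which act through receptor tyrosine kinases and the MAPK cascade and induce their own inhibitors. The miR-17~92 cluster is transcribed as a single precursor, Mir17hg, from which 6 microRNAs are cut. A microRNA pairs through its seed, bases 2 to 8, with matching sites in the 3′ untranslated region (UTR) of messenger RNAs and lowers their level or their translation.

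The 6 mature microRNAs encoded by the deleted cluster are shown because their seeds define the sites searched for in the epithelial transcripts. They lie on mouse chromosome 14, plus strand, between positions 115043684 and 115044496 of GRCm38.p6 (RefSeq sequences, seeds in capitals, 5′ to 3′).
mmu-miR-17-5p: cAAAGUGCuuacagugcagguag
mmu-miR-20a-5p: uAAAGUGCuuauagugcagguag
mmu-miR-18a-5p: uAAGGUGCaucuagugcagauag
mmu-miR-19a-3p: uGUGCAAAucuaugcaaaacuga
mmu-miR-19b-3p: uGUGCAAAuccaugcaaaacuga
mmu-miR-92a-3p: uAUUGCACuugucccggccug
The seeds form 4 families. miR-17-5p and miR-20a-5p share the miR-17 seed, miR-19a-3p and miR-19b-3p share the miR-19 seed, and miR-18a-5p and miR-92a-3p each stand alone.

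The label was checked against 5 markers given for this cell type. Lhx9, a LIM homeobox factor needed for gonad formation, was highest in these cells among 13 annotated cell types in each of the 4 samples, at 614.9, 556.9, 842.6 and 669.7 CPM (UMIs scaled by the total of the cell type in that sample) in the order XY control, the E11.5 KO, the E11.75 KO and XX control, which is kept below. The next cell type was pre-supporting cells (Bipotential progenitors in the annotation), at 253.9 to 414.4 CPM. Upk3b, a uroplakin of mesothelial surfaces, ranked first or second of the 13 types. It was shared with the mesonephric epithelium, and the keratin Krt19 ranked second to it in each sample. Aldh1a1, a retinaldehyde dehydrogenase, ranked between 2 and 6 of the 13 types, well below adrenal cells. Msln, which encodes mesothelin and marks mature mesothelium, was absent but for 1 UMI in the E11.5 KO. On the trimmed mean of M-values scale used further below, 3 UMIs in a sample would correspond to 0.2765 to 0.6714 CPM. Of the 5 markers 4 were therefore detected in these cells, and Lhx9 separated them from the mesonephric epithelium.

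Among genes with at least 50 CPM in these cells in each sample, those with the highest level over the next cell type, taken as the lowest ratio over the 4 samples, were Myl7, Tm4sf5, Lhx9, Amer1, Ccdc34, Tspan5, Hoxd9, H2afx, Kif4 and Aspm. Myl7, an atrial myosin light chain, was at 107.2, 89.39, 62.36 and 148.6 CPM of total UMIs, and no other cell type exceeded 20.75 CPM. Kif4 and Aspm, both used in mitosis, led by much less, with ratios of 1.106 to 1.323 over the next type. These genes describe the cells, whose annotation was itself made from expression.

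Coelomic epithelium made up a larger share of gonadal cells in the E11.5 KO than in any other sample, and both of its runs gave the same order. Gonadal cells are here the 6 gonadal types of the annotation: coelomic epithelium, pre-supporting cells, Sertoli cells, germ cells, supporting-like cells and progenitors of the interstitium. The shares were 30.53% in the XY control (95% interval 29.48 to 31.61), 37.84% in the E11.5 KO (36.46 to 39.24), 29.84% in the E11.75 KO (28.22 to 31.5) and 23.4% in the XX control (20.78 to 26.17). Single runs gave 30.64% and 30.43% in the XY control, 37.73% and 37.94% in the E11.5 KO, and 23.46% and 23.33% in the XX control. Cells of these samples shared a dissection, so the closeness of the runs measures sequencing and capture, not embryos.

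**Figure D1:**
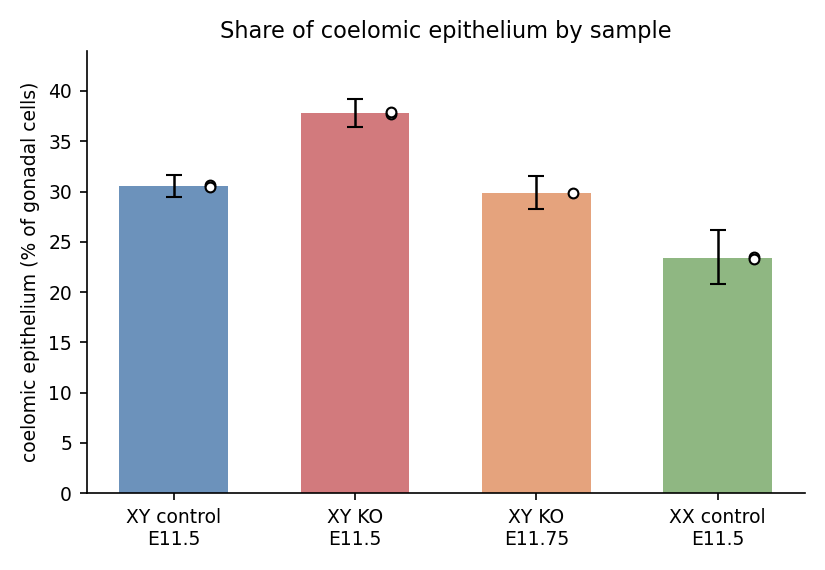
Bars give the share of coelomic epithelium among gonadal cells (vertical axis, percent) in each of the 4 samples, error bars the exact 95% binomial interval and open circles the single runs (technical replicates). The E11.5 KO stands at 37.84% and the other samples at 23.4% to 30.53%.

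A share depends on the other types in its denominator, so their values are set beside it. Sertoli cells made up 10.37%, 0.5035%, 5.521% and 0.2035% of gonadal cells, and germ cells 7.665%, 3.461%, 4.995% and 8.545%. With germ cells left out, the epithelial shares were 33.07%, 39.2%, 31.41% and 25.58%. Over all cells of a sample, mesonephros included, they were 9.415%, 10.58%, 10.69% and 6.269%, and the E11.5 KO then no longer stood apart from the E11.75 KO. The amount of mesonephros in each dissection is not given in the sources used here.

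Most genes that hold the identity of the layer stayed within 2-fold of the XY control. Levels from here on are CPM on the trimmed mean of M-values (TMM) scale over the 4 epithelial sums, and differences are log2 ratios over the XY control. Values of single runs were scaled by TMM factors over the run sums, so a sample's level can lie outside those of its runs. Lhx9 was at 611, 591, 750 and 713 CPM, and Upk3b at 189.1, 210.7, 243.3 and 203.2 CPM. Wt1, a zinc finger factor required for the survival of this layer, was at 474.1, 486.8, 621.3 and 422.1 CPM. Gata4 lay between 128 and 145.2 CPM in the 4 samples. Emx2, a homeobox factor of the early ridge, was at 249.2, 304, 361 and 339.3 CPM. None of the 18 bipotential gonad factors with at least 100 UMIs passed 2-fold in the E11.5 KO, and their median log2 ratio was -0.12. Among all genes tested 1.0% passed it in either direction, and their median was -0.01. Of the 18 factors Tcf21 alone was past 2-fold in the E11.75 KO, at -1.04, beside 2.64% of all genes. On total UMIs or with the second control run alone none of the 18 was lower by 2-fold.

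Among the given markers Aldh1a1 and Krt19 moved most. Aldh1a1 was at 31.89, 12.24, 21.95 and 40.73 CPM, which is a log2 ratio of -1.38 in the E11.5 KO (interval -1.70 to -1.07) and -0.53 in the E11.75 KO. Its runs gave 30.83 and 31.85 CPM in the XY control and 13.48 and 10.65 CPM in the E11.5 KO. Such runs are technical repeats and do not measure the spread between embryos. Aldh1a2, the main retinoic acid synthase of this tissue, was level in the XY samples, at 159.9, 160.1 and 160 CPM, and at 251.5 CPM in the XX control. Krt19 was at 47.4, 75.9, 42.7 and 40.5 CPM, the highest level being that of the E11.5 KO. Krt18, another keratin of simple epithelia, was at 51.71, 89.37, 58.54 and 73.63 CPM.

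Across the transcriptome few genes passed 2-fold in the E11.5 KO. A minimum of 100 UMIs summed over the 2 samples compared left 10580 genes, of which 31 were at least 2-fold higher than in the XY control (0.293%) and 75 at least 2-fold lower (0.709%). With total UMIs in place of TMM the split was 21 higher and 101 lower, and the median of all genes moved to -0.10. In the E11.75 KO the TMM scale gave 101 higher (0.998%) and 166 lower (1.64%) of 10120 genes, whereas total UMIs gave 199 higher and 81 lower with a median of 0.14. In the XX control 25 genes were higher (0.25%) and 128 lower (1.28%) of 10015, and total UMIs moved the median to -0.12. In either direction these counts are 1.0%, 2.64% and 1.53% of the genes tested. Between 2 runs of 1 sample, 2 or 3 genes passed 2-fold. The KO and XX comparisons share the XY control sample, so a value peculiar to that sample would enter each of them.

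The transcript of the deleted cluster was higher, not lower, in the KO samples. Mir17hg was at 24.1, 176, 183 and 20.4 CPM, with log2 ratios of 2.87 in the E11.5 KO (2.68 to 3.07) and 2.92 in the E11.75 KO (2.73 to 3.13). Its runs were at 22.7 and 24.7 CPM in the XY control and at 179 and 168 CPM in the E11.5 KO. The same direction was seen in the other 12 cell types of the E11.5 KO. Reads of this assay come from near the 3′ end of a transcript, and the files do not show whether they lie inside the deleted segment, so Mir17hg does not check the deletion. The level separates the KO samples from both controls without overlap.

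Mylip, a ubiquitin ligase for lipoprotein receptors and a known miR-17~92 target, was higher in both KO samples. It was at 13.3, 34.1, 34.8 and 16.8 CPM, with log2 ratios of 1.36 (1.07 to 1.65) and 1.39 (1.06 to 1.72). Single runs were at 13.8 and 12.1 CPM in the XY control, 33.6 and 33.4 CPM in the E11.5 KO, and 21.7 and 12.5 CPM in the XX control. Mylip was the only one of 36 known targets that passed 2-fold in the E11.5 KO, and the median of these targets was -0.07, beside -0.01 for all genes. The shares of all genes past 2-fold there were 0.293% higher and 0.709% lower. In the E11.75 KO Mylip and Cdkn1a, the cell cycle inhibitor p21, were higher and Ctgf, a matricellular protein, was lower, with a median of 0.17 beside -0.02 for all genes, of which 0.998% were higher and 1.64% lower.

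Cdkn1a was at 8.204, 14.58, 19.92 and 9.399 CPM. Apart from Mylip, the other 35 known targets had log2 ratios of -0.74 and above in the E11.5 KO, and none passed 2-fold. Bcl2l11, the pro-apoptotic factor Bim, was at 33.28, 34.47, 42.28 and 36.92 CPM. E2f1, a factor of S phase entry, was at 33, 28.41, 37.8 and 31.33 CPM. The intervals of these log2 ratios in the E11.5 KO were -0.17 to 0.27 for Bcl2l11 and -0.45 to 0.02 for E2f1. A 1.5-fold rise lies outside each, but the intervals cover counting error only and not the spread between embryos.

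Seed sites were searched as 8-base matches in the longest 3′ UTR of each gene in GENCODE M21 (GRCm38), sense strand only. The letters were GCACTTTA for the miR-17 family, GCACCTTA for miR-18, TTTGCACA for miR-19 and GTGCAATA for miR-92. They were held by 3.939%, 1.527%, 5.524% and 2.493% of 17287 3′ UTRs, and any of them by 12.28%. Of 1286 genes with a match and at least 200 UMIs, the 5 with the highest lower ratio of the 2 KO samples were Mylip, Zfp992, Xylt2, Tor1b and Acadm. Their matches are printed to show the sequence beside which these ratios stand, with the 8 bases in capitals and coordinates of the printed window, each in the last exon.
Mylip, miR-19, chr13:45411813-45411842, plus strand: gcatttgtttcTTTGCACAgacattttgtc
Mylip, miR-92, chr13:45411699-45411728, plus strand: gacctcatcggGTGCAATActagctaagtt
Zfp992, miR-19, chr4:146468583-146468612, plus strand: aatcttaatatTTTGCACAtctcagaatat
Xylt2, miR-18, chr11:94664528-94664557, minus strand: gccggggaattGCACCTTAcagacaacgga
Xylt2, miR-92, chr11:94664286-94664315, minus strand: gggaggacgatGTGCAATAgggctcagagc
Tor1b, miR-19, chr2:30957135-30957164, plus strand: ccccttggggcTTTGCACAtttgcacctgt
Acadm, miR-19, chr3:153922472-153922501, minus strand: atttgctttgtTTTGCACAaaagagtaaaa
A match is a description of the sequence and does not show that it is used.

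These genes were chosen for their ratios, which are therefore given as a description. Acadm, the medium-chain acyl-CoA dehydrogenase of fatty acid oxidation, was at 32.08, 67.13, 55.49 and 43.41 CPM. Xylt2, which starts glycosaminoglycan chains, was at 18.62, 38.83, 33.74 and 11.41 CPM. Tor1b, an ATPase of the endoplasmic reticulum, was at 42.68, 74.9, 90.85 and 37.6 CPM. In these 3 genes both KO samples lay above both controls. Zfp992 was at 12.91, 25.11, 23.58 and 27.75 CPM, so that the XX control was as high as the KO samples. Zfp992 belongs to a family of near-identical zinc finger genes whose reads may be split between copies.

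Genes with an 8-base match showed, as a group, a small shift that depended on 3′ UTR length. In the E11.5 KO the median log2 ratio was 0.01 for 1481 genes with a match and -0.00 for 5388 genes without any site. For short, middle and long 3′ UTRs it was 0.13, 0.05 and -0.02 with a match (106, 427 and 948 genes) and 0.02, -0.02 and -0.05 without (2878, 1814 and 696 genes). Within each length class the genes with an 8-base match were thus the higher. The genes without any site also lack 7-base matches, so genes with only a 7-base match are in neither group. With 7-base matches added, 4888 genes had a median of -0.02 in the E11.5 KO, below that of the genes without any site. Their 3′ UTRs were longer, with a median of 2136 bases against 663. By length class their medians were 0.065, -0.007 and -0.0456, against 0.017, -0.018 and -0.0486 without any site. In the E11.75 KO the medians were -0.04, 0.14 and 0.21 with an 8-base match and -0.27, -0.05 and 0.09 without any site. In the XX control, where the cluster is intact, they were -0.07, -0.09 and -0.14 with a match and 0.09, -0.04 and -0.10 without, which is the opposite order. For the E11.75 KO over the E11.5 KO, which both lack the cluster, they were -0.13, 0.09 and 0.24 with a match. Without a site they were -0.30, -0.01 and 0.16, so genes with a match were the higher in this comparison too.

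Length itself moved with the ratios. Over all genes with a 3′ UTR the rank correlation of its length with the log2 ratio was -0.14 in the E11.5 KO and 0.38 in the E11.75 KO. It was -0.24 in the XX control and 0.44 for the E11.75 KO over the E11.5 KO. These values are descriptions across genes that share a library. Matches become more frequent with length, and the comparison within length classes narrows but does not remove this difference. The part of length in these medians was otherwise not tested.

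**Figure D2:**
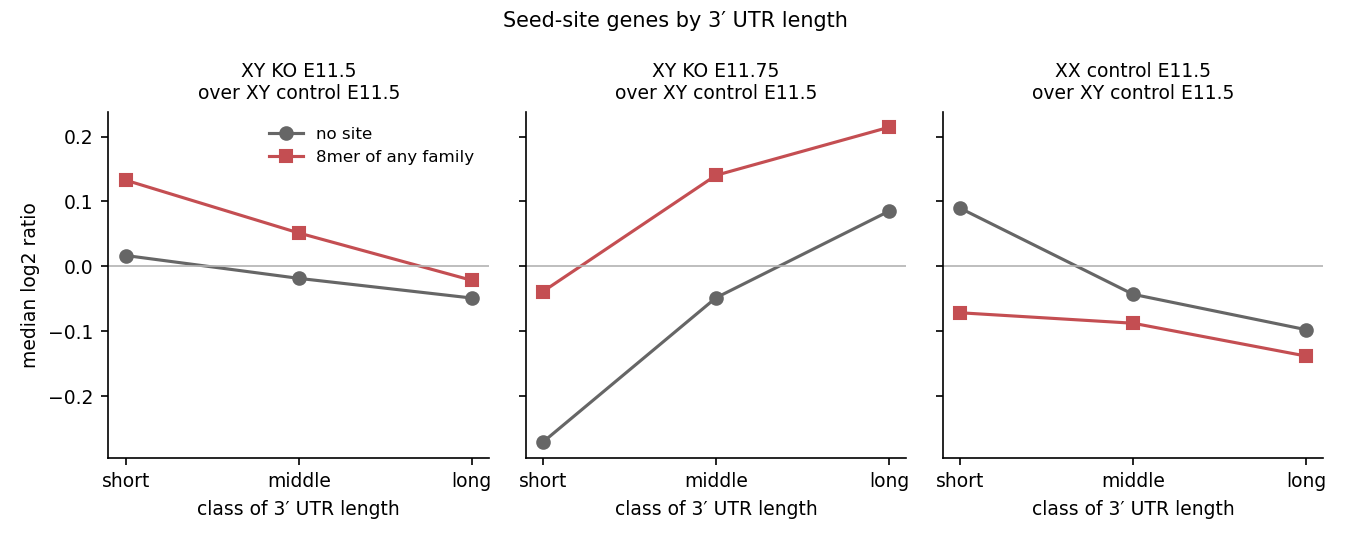
Points give the median log2 ratio over the XY control (vertical axis) of genes in 3 equal-sized classes of 3′ UTR length (horizontal axis), red squares with an 8-base match to any of the 4 seed families and grey circles with no site. The red line lies above the grey line in both KO panels and below it in the XX panel.

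The largest difference shared by the KO samples was that of H19, an imprinted long non-coding RNA normally expressed from the maternal allele. It was at 391, 9.04, 4.27 and 594 CPM, with 4245, 85, 21 and 2654 UMIs. The log2 ratios were -5.43 in the E11.5 KO (-5.76 to -5.13) and -6.48 in the E11.75 KO (-7.21 to -5.90). Igf2, its imprinted neighbour, which encodes insulin-like growth factor II, was at 35.21, 67.56, 66.87 and 28.64 CPM. H19 was the only one of 25 imprinted genes past 2-fold in either KO sample on the TMM scale, whereas on total UMIs 4 others were at least 2-fold higher in the E11.75 KO. The low level was not particular to the epithelium, since H19 was also lower in each of the other 12 cell types of the E11.5 KO.

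Epha3, an ephrin receptor tyrosine kinase that guides cell contact, was high in the E11.5 KO alone. It was at 2.86, 23.6, 2.85 and 2.24 CPM, and single runs of the E11.5 KO gave 21.8 and 24.6 CPM. The log2 ratio was 3.03 (2.50 to 3.64) in this sample and 0.02 in the E11.75 KO. In the mesonephric epithelium Epha3 was at 48.55 CPM in the XY control and 120.2 CPM in the E11.5 KO, and in pre-supporting cells it was at 4.34 and 3.37 CPM.

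The 10 highest ratios of the E11.5 KO were taken among genes with at least 200 UMIs and the same sign in the E11.75 KO. The other genes among these 10 had no single role. Adamts19, a secreted metalloprotease, was at 6.453, 15.96, 37.6 and 6.937 CPM. Bnip3, a mitophagy receptor induced by low oxygen, was at 14.2, 33.62, 16.26 and 18.57 CPM, so that the difference was large in the E11.5 sample only. Fxyd1, a regulator of the sodium pump, was at 8.112, 17.45, 15.85 and 9.847 CPM. Rgs11, which speeds the shut-off of G proteins, was at 12.08, 30.11, 19.51 and 19.92 CPM, and the XX control equalled the E11.75 KO. Sumf1, the activator of sulfatases, was at 7.19, 14.68, 9.553 and 6.042 CPM, and its log2 ratio of 1.03 ranged from 0.53 to 1.55 between pairs of runs. The first gene outside these 10 was Zfp992, at 0.96.

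Of the 32 gene lists, that of FGF and MAPK signalling held the most genes at least 2-fold lower in the E11.5 KO. The lists were chosen with earlier results of these data known, so this ranking and the counts below are descriptions and not tests. Of 21 genes of the pathway with at least 100 UMIs, 10 were at least 2-fold lower, none was 2-fold higher, and 19 lay below 0, with a median log2 ratio of -0.86. The corresponding share of all genes was 0.709% lower, and the median of all genes was -0.01. The 10 genes were Dusp6, Egr1, Etv4, Etv5, Fgf10, Fos, Junb, Spry1, Spry2 and Spry4. The summed level of all 28 listed genes was 823, 453, 652 and 747 CPM, and runs gave 825.0 and 787.2 CPM in the XY control and 452.7 and 438.7 CPM in the E11.5 KO.

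The inhibitors that the pathway induces were low. Sprouty proteins block signalling downstream of receptor tyrosine kinases. Spry4 was at 11.98, 1.596, 4.675 and 3.357 CPM, Spry2 at 51.5, 18.7, 27.2 and 33.3 CPM, and Spry1 at 25.4, 10.3, 10.8 and 16.6 CPM. All 3 were lowest in the E11.5 KO, with log2 ratios of -2.87, -1.46 and -1.30. Dusp6, a phosphatase that inactivates ERK, was at 51.0, 17.3, 24.6 and 26.2 CPM, a log2 ratio of -1.55. By run Dusp6 was at 54.0 and 45.31 CPM in the XY control and at 15.84 and 18.22 CPM in the E11.5 KO. Spred1 was less changed, at -0.49.

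Of the 3 Etv genes of the list, Etv4 and Etv5 were at least 2-fold lower in the E11.5 KO, and Etv1 had a log2 ratio of 0.18. Etv4 was at 23.97, 4.149, 11.99 and 7.385 CPM and Etv5 at 34.2, 9.043, 26.02 and 14.99 CPM, both ETS factors that carry FGF responses. Their log2 ratios in the E11.5 KO were -2.51 and -1.91, and in the XX control -1.68 and -1.18. By run Etv4 was at 22.3 and 24.9 CPM in the XY control, 4.71 and 3.48 CPM in the E11.5 KO, and 3.53 and 10.1 CPM in the XX control. When every cell was thinned to 3000 UMIs, 5.857% of epithelial cells held an Etv4 UMI in the XY control, 0.8393% in the E11.5 KO, 4.639% in the E11.75 KO and 1.747% in the XX control. Unthinned shares were 9.932% in the XY control and 1.885% in the E11.5 KO. In endothelial cells, which gave 2.291% in the thinned XY control and 7.246% in the thinned E11.5 KO, the order of these samples was the reverse. In mesonephric epithelium, the shares were 2.007% and 1.826%. Whether these types lack Etv4 is not known from the files, so background was not separated from expression, and the low shares of the E11.5 KO and the XX control are read only beside their CPM. Median depths before thinning were 4613 and 5192.5 UMIs per epithelial cell in the XY control and the E11.5 KO.

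The immediate early genes, which respond within minutes to growth factors and other stimuli, followed a different order over the samples. Egr1 was at 58.3, 8.94, 37.4 and 96.9 CPM, Fos at 41.5, 20.3, 26.6 and 54.4 CPM, and Junb at 14.6, 2.98, 7.11 and 22.8 CPM. In each of these genes the XX control was the highest sample and the E11.5 KO the lowest. Ier2 was at 157, 86.6, 75 and 214 CPM. Etv4, Etv5, Spry1, Spry2 and Spry4, by contrast, were highest in the XY control, with the XX control below it.

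Of the ligands and receptors of the pathway with at least 100 UMIs, only Fgf10 passed 2-fold in the E11.5 KO. Fgf9, the ligand that promotes testis development, was at 11.9, 10.4, 13.0 and 8.73 CPM. Fgf10 was at 13.7, 4.58, 5.69 and 10.3 CPM, a log2 ratio of -1.57 in the E11.5 KO. Fgfr2, the receptor through which FGF9 acts in the gonad, was at 38.9, 45.0, 87.4 and 46.1 CPM, a log2 ratio of 1.17 in the E11.75 KO. Fgfr1 stood at -0.41 in the E11.5 KO.

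In the E11.75 KO the list was closer to the control. Of 20 genes 6 were at least 2-fold lower (Dusp6, Fgf10, Ier2, Junb, Spry1 and Spry4), Fgfr2 was higher, and the median was -0.51, beside 1.64% lower and 0.998% higher of all genes. The count of lower genes ranged from 2 to 7 over other settings. In other cell types of the E11.75 KO the list median was 0.29 in pre-supporting cells and 0.15 in interstitial progenitors. It was 0.37 in mesonephric epithelium and 0.33 in the cells named Mesonephros. Between the KO samples Egr1, Etv5 and Fgfr3 were at least 2-fold higher in the later one, and 15 of 16 genes lay above 0. For all genes 0.953% were higher and 1.55% lower in the later KO sample, 2.5% in all. In the XX control 4 of 19 genes were lower (Etv4, Etv5, Il17rd and Spry4), with a median of -0.62, beside 1.28% of all genes. Over other settings this count ranged from 0 of 8, where 500 UMIs were required, to 5, and the median from -0.79 to -0.19.

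**Figure D3:**
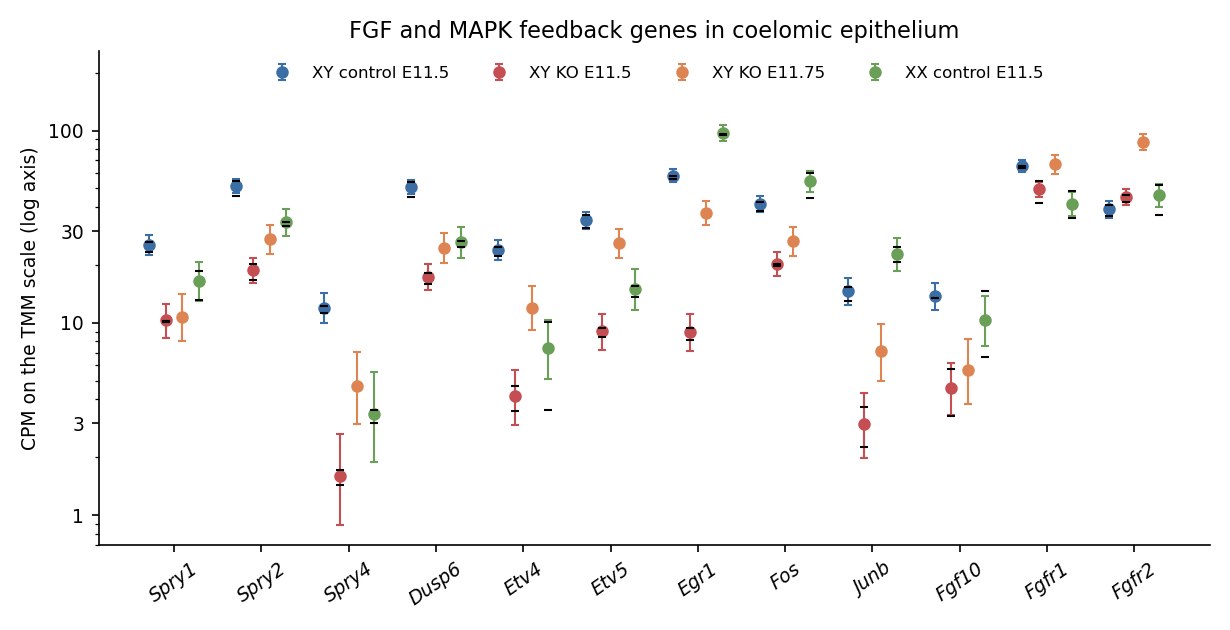
Levels of 12 FGF and MAPK pathway genes in coelomic epithelium (vertical log axis, CPM on the TMM scale), with coloured points for the 4 samples, exact 95% Poisson intervals as bars and black dashes for single runs. The E11.5 KO is the lowest sample for Spry1, Spry2, Spry4, Dusp6, Etv4, Etv5, Egr1, Fos, Junb and Fgf10, and Fgfr2 is highest in the E11.75 KO.

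In the E11.5 KO the FGF and MAPK list remained low under other processing, and its median was near 0 in mesonephric cells. Over 13 other scalings, cell selections, count minimums and pairs of runs, 4 to 11 of the 10 to 24 genes tested were at least 2-fold lower and the median lay between -1.10 and -0.79. With no minimum, 12 of 28 were lower and 1 higher, with a median of -0.75. The count of 4 was found where only genes with 500 or more UMIs were kept. With cells left out that carried 2 or more markers of germ, endothelial, immune or tubule cells, 9 of 20 genes were lower and the median was -0.89. In pre-supporting cells 5 of 15 genes were lower with a median of -0.57, and in interstitial progenitors 4 of 16 with -0.50. In the mesonephric epithelium it was 1 of 17 with -0.05, and in the cells named Mesonephros 0 of 25 with -0.14. Over all genes of these types 1.913%, 0.5683%, 0.4653% and 0.8771% were at least 2-fold lower, in the same order. These cell types come from the same dissected samples, and no test of the difference between them was possible.

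Single genes of the list divided between these cell types. In the E11.5 KO Spry4 had log2 ratios of -2.87 in coelomic epithelium, -3.25 in pre-supporting cells, -2.01 in interstitial progenitors and 0.04 in mesonephric epithelium. Etv4 had -2.51, -1.11, -1.33 and -0.00 in the same order. Egr1 was lower in mesonephric epithelium too, with -2.70, -1.52, -1.36 and -2.08. Of the 3 genes, Egr1 alone was past 2-fold in mesonephric epithelium, and differences between cell types were not tested.

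Summed markers of other cell types are given beside this result, and the immune sum was lower in both KO samples than in both controls. Summed immune markers (6 genes) were at 20.83, 5.426, 3.659 and 10.52 CPM, with Ptprc at 0 UMIs in both KO samples. Summed germ cell markers (6 genes) were at 25.35, 15.21, 16.87 and 14.99 CPM, with Ddx4 at 0 in the XX control. Summed erythroid globins (6 genes) were at 2662, 1206, 1443 and 767 CPM. Endothelial markers (6 genes) were at 102.6, 93.84, 90.24 and 74.97 CPM, and pre-supporting and Sertoli markers (5 genes) at 155, 138, 162 and 123 CPM. Interstitial markers were at 1536, 1489, 1617 and 1261 CPM, tubule markers at 67.8, 56.8, 54.3 and 62.2 CPM, adrenal markers at 81.2, 74.9, 45.3 and 96.9 CPM, and neural crest markers at 37.4, 30.6, 34.8 and 31.1 CPM. The part of these cells' RNA in the gene differences was not tested beyond leaving out the cells described.

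Other genes low in both KO samples are given singly. Mef2c, a MADS-box transcription factor, was at 55.22, 15, 23.78 and 19.25 CPM, so that the XY control stood above the other 3 samples. Dkk1, a secreted WNT inhibitor, was at 21.9, 7.24, 7.11 and 11.4 CPM. Cpa1, a carboxypeptidase, was at 22.49, 6.916, 6.504 and 18.35 CPM. Rhox5, an X-linked homeobox gene, was at 18.9, 5.852, 7.317 and 5.147 CPM. Among genes with at least 200 UMIs and the same sign in both KO samples, Ckb, the brain-type creatine kinase, lay just outside the 10 lowest. It stood at -1.52 in the E11.5 KO and at -2.23 in the E11.75 KO.

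A pair of patterns over cell types was seen among these genes. Dkk1 had a log2 ratio of -1.59 in coelomic epithelium of the E11.5 KO and ratios of 0.40 in pre-supporting cells, 0.05 in interstitial progenitors and -0.04 in mesonephric epithelium. Cpa1, Rhox5 and Tgfb1, a cytokine gene at 10.14, 2.553, 3.659 and 3.804 CPM in coelomic epithelium, were lower in each of the 5 types plotted. For Tgfb1 the log2 ratios were -1.97, -2.21, -1.93, -1.76 and -1.60.

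**Figure D4:**
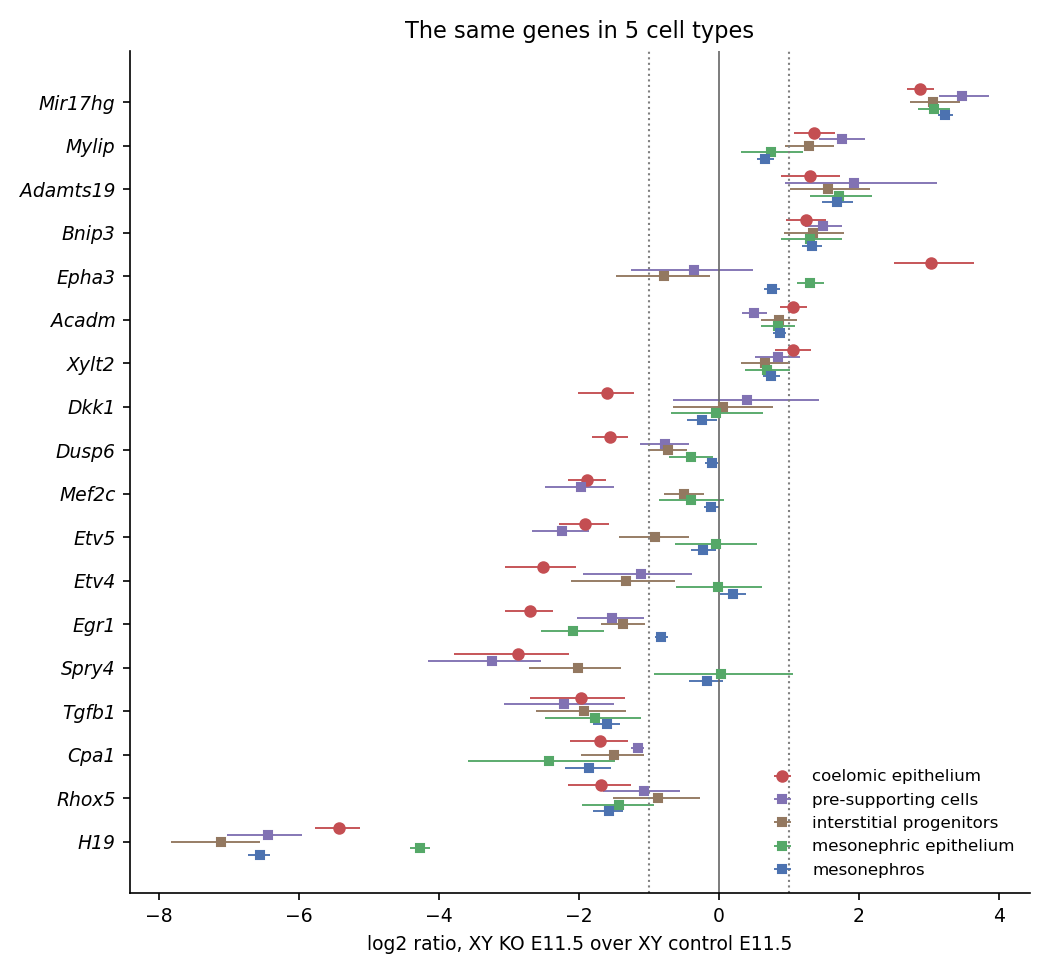
Log2 ratios of the E11.5 KO over the XY control (horizontal axis) for 18 genes in 5 cell types, with red circles for coelomic epithelium, squares for the other types, bars for exact 95% intervals and dotted lines at 2-fold. Mir17hg lies to the right and H19 and Tgfb1 lie to the left in every type, whereas Spry4, Etv4 and Dkk1 lie near 0 in the mesonephric types.

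No gene of S phase or of G2 and M phase passed 2-fold in any comparison, and most S phase genes lay below 0 in both KO samples. The share of all genes past 2-fold was 1.0% in the E11.5 KO, 2.64% in the E11.75 KO and 1.53% in the XX control. Of 30 S phase genes 28 lay below 0 in the E11.5 KO and 25 in the E11.75 KO, with medians of -0.23 and -0.32. Ccne1, the cyclin that starts DNA replication, was at 49.96, 32.88, 27.24 and 54.38 CPM. The 30 genes of G2 and M phase had medians of -0.07 and -0.19, and the S phase median in the XX control was 0.07. The S phase medians of the E11.5 KO stayed negative over 13 other settings, between -0.33 and -0.13. In other types of the E11.5 KO the S phase median was 0.08 in pre-supporting cells, -0.27 in interstitial progenitors, 0.13 in mesonephric epithelium and 0.01 in the cells named Mesonephros. The medians of all genes were -0.01 and -0.02 in these comparisons. Of the G1 regulators, none of 19 passed 2-fold in the E11.5 KO, and Cdkn1a alone did in the E11.75 KO, with medians of -0.18 and 0.13 and 12 of 19 genes above 0 in the later sample. Of all genes 48.02% and 48.41% lay above 0, and 0.998% were at least 2-fold higher in the E11.75 KO.

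No gene of glycolysis passed 2-fold over the XY control in either KO sample, and the medians of the list had opposite signs. The share of all genes past 2-fold was 1.0% in the E11.5 KO and 2.64% in the E11.75 KO. Of 23 genes 20 lay above 0 in the E11.5 KO, with a median of 0.29, and 14 of 21 lay below 0 in the E11.75 KO, with a median of -0.41. Of all genes 48.02% and 48.41% lay above 0. Pdk1, which turns pyruvate away from mitochondria, was at 38.62, 64.9, 39.43 and 23.27 CPM, and the glucose transporter Slc2a1 at 52.82, 84.58, 46.54 and 36.7 CPM. Between the KO samples 6 of 20 genes were at least 2-fold lower in the later one (Aldoa, Gapdh, Ldha, Pgk1, Slc16a3 and Tpi1), with a median of -0.87, beside 1.55% of all genes. On total UMIs none of the 6 passed 2-fold and the median was -0.62. Ratios between the KO samples rose with 3′ UTR length (rank correlation 0.44), and the part of length in this list was not tested. The glycolysis median of the E11.5 KO was also above 0 in the other types examined, at 0.55 in pre-supporting cells, 0.65 in interstitial progenitors and 0.68 in mesonephric epithelium. Gapdh was at 1192, 1432, 619.7 and 1908 CPM, and mitochondrial transcripts made up 4.138%, 4.353%, 5.631% and 2.999% of epithelial UMIs.

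Of the genes of the epithelial sheet and its underlying matrix, few passed 2-fold. None of 21 polarity and junction genes passed 2-fold in any comparison with the XY control, and their median was 0.00 in the E11.5 KO. Among all genes 1.0% passed 2-fold in the E11.5 KO, 2.64% in the E11.75 KO and 1.53% in the XX control. Cdh2, N-cadherin, was at 93.75, 85.12, 84.35 and 95.78 CPM, whereas Cdh1, E-cadherin, had only 20, 9, 5 and 3 UMIs. Of 17 basement membrane genes 13 lay above 0 in the E11.5 KO (median 0.22) and 15 in the E11.75 KO (0.38), while 16 lay below 0 in the XX control (-0.48). Of all genes 48.02% and 48.41% lay above 0 in the KO samples and 46.68% in the XX control. The XX medians of this list were -0.31 to -0.50 in the other 4 types as well. Frem2, an extracellular matrix protein of the Fraser complex, was at 36.41, 47.56, 91.26 and 22.38 CPM, and was the one member past 2-fold, in the E11.75 KO. Among 18 mesothelial genes tested in the E11.75 KO, Muc16 was higher, at 18.99, 23.94, 43.09 and 28.2 CPM, and Gpm6a and Tbx18 were lower, beside 0.998% higher and 1.64% lower of all genes. None of 21 passed 2-fold in the E11.5 KO, and none of 19 did in the XX control. Of 15 genes of mesenchymal transition none passed 2-fold in the E11.5 KO, Tcf21 was lower in the E11.75 KO on the TMM scale and Snai1 in the XX control.

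Of the 9 genes of the ovary side tested, 4 were at least 2-fold higher in the E11.75 KO and none in the E11.5 KO. The list medians were 0.76 and 0.31, with 7 and 6 of the 9 genes above 0, and the background of genes 2-fold higher in the E11.75 KO was 0.998%. By run the summed level of the list was 445.8 and 454.1 CPM in the XY control and 629.1 and 600.4 CPM in the E11.5 KO. Bmp2, a BMP ligand, was at 18.9, 20.53, 55.08 and 22.38 CPM. Irx3, a homeobox factor of granulosa cells, was at 5.899, 5.852, 24.8 and 4.923 CPM, and Lypd6 was at 13.09, 16.28, 37.19 and 14.99 CPM. Kitl, the ligand of the germ cell receptor Kit, was at 84.99, 72.56, 217.5 and 86.38 CPM. For each of these 4 genes the E11.5 samples of both sexes and genotypes lay together and the E11.75 KO stood above them. The count ranged from 1 to 5 over other settings, being 1 where 500 UMIs were required, and was 7 of 12 with no minimum. In pre-supporting cells of the E11.75 KO 5 of 11 genes of this list were at least 2-fold higher, beside 1.909% of all genes. In the E11.5 KO the highest of the 9 ratios was 0.88. Rspo1, an activator of WNT signalling in the ovary, was at 87.94, 161.6, 121.3 and 110.3 CPM and Wnt4 at 130.4, 203.7, 128.5 and 110.1 CPM.

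Genes of the testis side were sparse in this layer. Sry, the testis-determining gene, had 11, 5, 3 and 0 UMIs. Sox9, which Sry switches on, was at 30.1, 20.6, 14.8 and 10.1 CPM, with log2 ratios of -0.54, -1.02 and -1.57 in the E11.5 KO, the E11.75 KO and the XX control. None of 6 genes of the list passed 2-fold in the E11.5 KO, where 1.0% of all genes did. Nr5a1, which drives the supporting and steroidogenic fates, was at 54.2, 50.54, 80.49 and 49.01 CPM. Tcf21, a mesenchymal factor, was at 494.5, 357.3, 240.6 and 395.2 CPM, the one bipotential gonad factor past 2-fold in the E11.75 KO on the TMM scale, and not past it on total UMIs.

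The remaining signalling lists held few genes past 2-fold. The shares of all genes higher and lower were 0.293% and 0.709% in the E11.5 KO, 0.998% and 1.64% in the E11.75 KO, and 0.25% and 1.28% in the XX control. Of 27 WNT genes Dkk1 alone was lower in the E11.5 KO. In the E11.75 KO Notum and Wnt5a were higher and Dkk1 and Wnt11 lower of 28, and in the XX control Wnt11 was lower of 26. Wnt11, a ligand of the non-canonical pathway, was at 29.31, 28.73, 11.79 and 11.41 CPM. Of 26 BMP and TGF-beta genes Tgfb1 was lower in every comparison with the XY control, Bmp2 was higher in the E11.75 KO and Tgfbr3 was lower in the XX control. Of 14 retinoic acid genes only Aldh1a1 passed 2-fold in the E11.5 KO. No Notch gene passed it, although Dlk1 stood at 0.84 and Hes1 at -0.74 in the E11.5 KO.

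Growth factor and hedgehog genes leaned upward in the E11.75 KO. Of 15 IGF genes 14 lay above 0 in this sample, with a median of 0.61, against 9 and a median of 0.06 in the E11.5 KO. Of all genes 48.41% and 48.02% lay above 0, with medians of -0.02 and -0.01. Igfbp5, an IGF-binding protein, was at 805.6, 1361, 1446 and 546.7 CPM. Of 10 hedgehog genes all lay above 0 in the E11.75 KO. In the other 4 types of this sample the IGF medians were 0.48 to 0.66 and the hedgehog medians 0.55 to 0.81. In the XX control 12 of the 15 IGF genes and 8 of 8 hedgehog genes lay below 0, where 46.68% of all genes lay above it. Genes with long 3′ UTRs also stood higher in the E11.75 KO and lower in the XX control, and the part of length in these lists was not tested. The E11.75 KO also stood apart in the transcript Gm42418, at 11346 CPM of total UMIs against 4073 to 5248 in the other samples. Ribosomal protein genes made up 15.41% of its epithelial UMIs against 17.28% to 21.18%. The part of these differences in the lists was not tested.

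**Figure D5:**
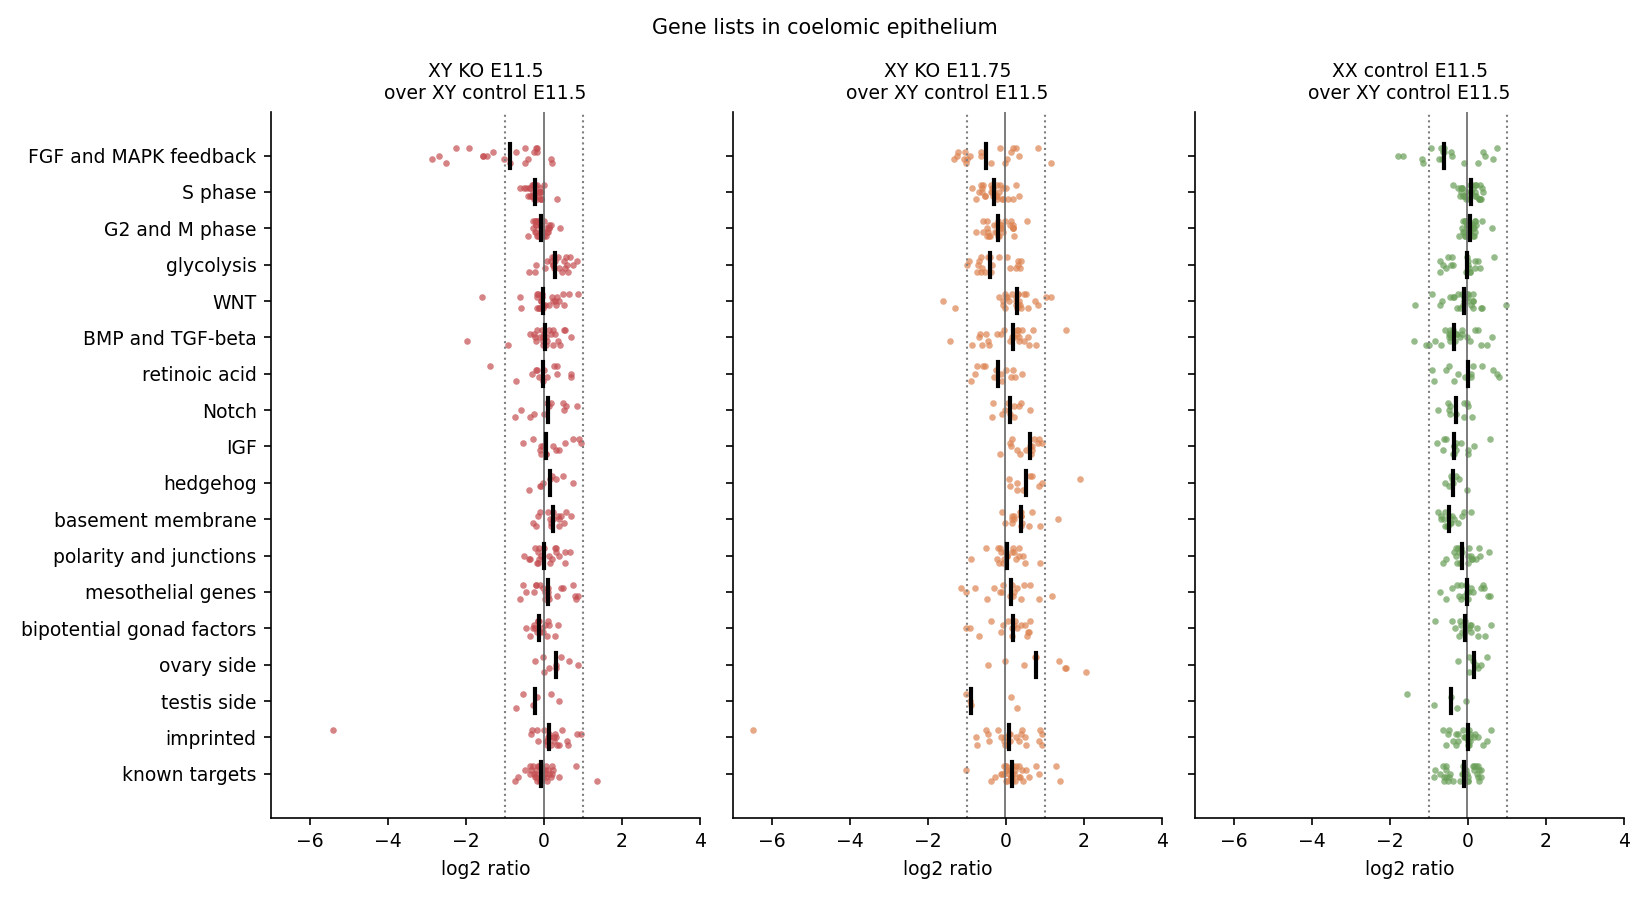
Each dot is the log2 ratio over the XY control (horizontal axis) of a gene in 1 of 18 lists (rows), with a black bar at the list's median, a grey line at the median of all genes and dotted lines at 2-fold. FGF and MAPK genes lie to the left in the E11.5 KO with a median of -0.86, ovary side genes lie to the right in the E11.75 KO with a median of 0.76, and the dot farthest to the left among imprinted genes is H19.

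Between the sexes the coelomic epithelium differed most in sex-linked genes. Xist, the RNA that silences an X chromosome, had 3255 UMIs in the XX control and 3, 0 and 1 in the XY samples. The Y-linked Ddx3y had 206 UMIs in the XY control and 0 in the XX control, which makes it at least 28.3-fold higher in the XY control against a floor of 3 UMIs per sample. Uty, with 161 and 0 UMIs, was at least 22.1-fold higher. These levels go with the labels of sex.

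Among autosomal and other genes, some of the low ones in the XX control were low in the KO samples as well. Ngfr, a neurotrophin receptor, was at 28.94, 11.28, 16.26 and 3.133 CPM. Its XX level rested on 14 UMIs, and the log2 ratio was -2.43 and -2.42 with the first XX run and -4.03 and -4.02 with the second. Chst1, a sulfotransferase, was at 17.88, 6.809, 9.756 and 3.804 CPM. The XX ratio of Chst1, -2.19, was -0.93 when cells were thinned to 3000 UMIs. Mid1, an X-linked ubiquitin ligase, was at 140.9, 132.2, 178.9 and 18.8 CPM, and thus low in the XX control alone. Tpm3-rs7, at 81.58, 60.96, 53.66 and 4.252 CPM, is a copy of Tpm3 with which it may share reads. Of the genes higher in the XX control, Hist1h1e, a linker histone, was at 23.32, 27.88, 26.83 and 58.86 CPM, and Cntn5, a neural adhesion molecule, at 10.42, 15.75, 11.79 and 25.96 CPM.

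Between the KO samples the later one was higher in Egr1 (2.06), Sema5a (1.62), Kitl (1.58), Frem1 (1.55) and Sema5b (1.55), and lower in Gm2694 (-3.53), Epha3 (-3.01), Ackr3 (-2.63), Hoxa4 (-2.21) and Crct1 (-2.15). Sema5b, a semaphorin, was at 12.08, 10.96, 32.11 and 8.728 CPM, and Ackr3, a scavenging receptor for CXCL12, was at 19.82, 28.19, 4.472 and 10.29 CPM. The E11.75 KO stood outside the other 3 samples in both. These ratios combine a difference in stage with the difference between 2 samples, 1 of which has a single run.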

How the data were processed

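Single-cell libraries of gonad with mesonephros were counted by the authors with Cell Ranger 6.1.1 against mm10, and the deposited table holds raw UMI counts (21495 genes by 52745 cells, 301219830 UMIs, every nonzero value whole) after their filters on mitochondrial and globin transcripts, UMIs and genes, a different filter for the XX sample, and removal of doublets. Cell types are the names the authors gave to clusters of the integrated cells. The study's text and the files attach the KO cell numbers to opposite stages, and here the labels and the files were followed, in which sample names, annotation and number of runs go together. The 7 libraries shared 1 to 40 barcodes per pair.

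UMIs of epithelial cells were summed per sample and scaled by TMM factors (edgeR 4.0.16, R 4.3.3), and log2 ratios were taken with a prior count of 0.5 in Python 3.11.15 (pandas 2.3.3, scipy 1.17.1). Epithelial sums were 10786003, 9978962, 4377887 and 4757388 UMIs. Levels and ratios have exact Poisson and binomial 95% intervals from UMI counts, and shares have Clopper-Pearson 95% intervals from numbers of cells. With 1 sample per group no test was run. A gene counted as past 2-fold where the 2 samples together held 100 UMIs or more of it, and the calculation was checked on simulated counts. Genes were named as the 10 highest and 10 lowest ratios of the E11.5 KO with at least 200 UMIs and the same sign in the E11.75 KO (mitochondrial, ribosomal protein and globin genes left out), the 5 at each end of the XX and KO-against-KO comparisons, members of 32 lists, genes leading the cell type, and 5 genes with a seed match. Members and lists were chosen with earlier results of these data known. 3′ UTRs were taken from GENCODE M21, in which 98.7% of symbols were found. Other scalings, minimums, folds, cell selections, thinning and single runs were tried. Some genes are not reported here.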

Additional observations from a re-analysis of the deposited data

Results flagged for a closer look

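In 8 of the genes named for the XX comparison or for the comparison of the KO samples, the 2 KO samples stood on opposite sides of the XY control in coelomic epithelium, with both counting intervals away from 0. The difference was not tested, and both comparisons use the same XY control sample. All but Gm26669 were picked for a large ratio between the KO samples, so standing apart partly restates that choice. Kitl had log2 ratios of 1.3554 in the E11.75 KO and -0.2278 in the E11.5 KO, Sema5a 1.1233 and -0.493, and Frem1, an extracellular matrix gene, 0.2666 and -1.2879. The opposite order was seen for Gm2694, at -3.1986 and 0.3287, Ackr3, at -2.1189 and 0.5079, Hoxa4, at -1.7351 and 0.4734, Crct1, at -0.837 and 1.3114, and Gm26669, at -0.6542 and 0.2134.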

How the results depend on the processing

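Over 571 recalculations of 50 named ratios, 539 stayed inside the counting interval of the reported value, 32 left it and none changed sign. Over all 571, 17 moved by more than 1.5-fold, 11 of them on single runs, and 24 came under 2-fold. No paired analysis was possible because each group is 1 sample. Counts of genes past 2-fold depended mostly on the minimum and the fold. In the E11.5 KO the count of 106 became 208 with 50 UMIs, 20 with 500, 3464 with no minimum, 566 at 1.5-fold, 69 in thinned cells, and 63 or 66 with single runs of the KO against the second run of the control. In the E11.75 KO the count of 267 became 441, 86, 3480 and 1832 under the first 4 of these. In the XX control 153 became 298, 30, 3335 and 848, then 237 in thinned cells and 90 with the first XX run against the second control run. Between the KO samples 249 became 396, 83, 2951 and 1960, and the higher and lower split of 95 and 154 became 274 and 48 on total UMIs. Epithelial shares were 9.415%, 10.58%, 10.69% and 6.269% of all cells, and 33.07% in the XY control without germ cells. The 48 other recalculated counts and shares stayed near the reported values. Depth limits genes of few UMIs, above all in the XX control with 230 cells.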

Other observations

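Coelomic epithelial cells with a Upk3b UMI differed from those without one in several genes. The split and the genes named were chosen after the data had been seen. Each cell was thinned to 3000 UMIs, and the split separated 668 from 1193 cells in the XY control, 656 from 1012 in the E11.5 KO, 351 from 425 in the E11.75 KO and 74 from 155 in the XX control. It left out 354, 136, 132 and 1 shallower cells. Upk3b was detected in 35.89%, 39.33%, 45.23% and 32.31% of thinned epithelial cells in the same order. In thinned endothelial cells, which should lack it, the shares were 1.146%, 1.087% and 2.098% in the first 3 samples and 0 of 80 cells in the XX control, which allows a share of up to 3.75%. Unthinned epithelial shares were 44.29%, 52.61%, 54.85% and 76.09%, at median depths of 4613, 5192.5, 4429.5 and 18694.5 UMIs.

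Lrrn4, a leucine-rich repeat gene of mesothelium, was higher in the cells with Upk3b, with log2 ratios of 0.63, 0.84, 1.16 and 1.28 in the 4 samples. Ezr, the linker of membrane and actin at apical surfaces, was higher by 0.74, 0.48, 0.83 and 0.75. Gadd45g, which acts upstream of Sry, was lower, at -2.05, -1.42, -1.39 and -2.67, and Wnt6 was lower, at -2.07, -0.94, -1.12 and -1.18. Lhx9 and Wt1 were almost level between the cells, with ratios of -0.13 to 0.20 for Lhx9 and -0.06 to 0.09 for Wt1. These ratios describe cells within each sample and carry no test.

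Kitl in cells with Upk3b was at 38.42, 40.14, 178.5 and 22.52 CPM of the thinned sums, and in cells without it at 108.1, 76.42, 315.3 and 94.62 CPM. The higher Kitl of the E11.75 KO was thus present in both sets of cells. Etv4 was at 15.97 and 24.31 CPM with and without Upk3b in the XY control, and at 3.049 and 2.964 CPM in the E11.5 KO, the latter from 6 and 9 UMIs, so it was low in both sets of cells there.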
